A study of Homo sapiens with 9 samples.

Results

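The RNA of the ETO2-GLIS2 line of U937 cells was compared after 12 h and 0 h of doxycycline, to describe which genes changed first once the fusion protein was induced. The comparison used 1 library at each time, so 2 of the 9 libraries of the study, and 11311 of the 60623 genes in the table, those with a mean of at least 1 FPKM (fragments per kilobase of exon, scaled to the mapped reads of the library) over these 2 libraries. U937 is a human monoblast-like leukemia cell line. All lines were grown with 5 μg/ml doxycycline for 0, 12 or 48 h. The ETO2-GLIS2 line was derived from 1 single-cell clone and carried an HA-tagged ETO2-GLIS2 cDNA in a retroviral vector with a doxycycline-dependent promoter and puromycin resistance. A line with the empty vector, treated in the same way, gave the change that doxycycline and time brought without the fusion. A clone with inducible AML1-ETO, another leukemia fusion, is quoted beside single genes and some gene lists. As each condition had 1 library, no difference between libraries was tested, and clone, culture and library cannot be told apart from the fusion.

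ETO2-GLIS2 joins ETO2, a corepressor of the ETO family encoded by CBFA2T3, to the zinc fingers of GLIS2, a DNA-binding protein related to the GLI factors of the Hedgehog pathway. The ETO part recruits histone deacetylases and partners with E proteins at genes of blood development, and the zinc fingers bring the complex to G-rich sites. The fusion is found in childhood acute megakaryoblastic leukemia. ETO2 itself normally works with factors such as LYL1 and LMO2 in early blood cells, while CEBPA, SPI1 and CEBPB drive the monocytic program that U937 cells partly express.

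Both libraries had the RNA of a monocytic line. Of 12 monocytic markers, 9 were at 1 FPKM or more, and 3 were under it, among them CD14 and CD68, which were at or near 0 in all 9 libraries. Of 19 markers of other cell types, 17 were under 1 FPKM and 14 were at 0. The monocytic markers had sums of 1890 and 2235 FPKM at 0 and 12 h, beside 1067 and 1480 FPKM without the fusion. The summed level of the other markers was 4.35 and 4.14 FPKM. The libraries held 18443636 reads on genes at 0 h and 17885139 at 12 h, within the 15136395 to 18443636 of the series. The share of reads on the mitochondrial genome was 7.01% at 0 h and 4.59% at 12 h, beside 6.69% and 4.26% in the empty vector line.

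The genes that the construct carries were both higher at 12 h. The level of CBFA2T3 was 4.10, 11.35 and 12.63 FPKM at 0, 12 and 48 h, and 4.75, 6.38 and 6.002 FPKM in the empty vector line. GLIS2 went from 2.39 to 6.79 and 8.85 FPKM, and in the empty vector line from 4.76 to 3.64 and 3.72. Both libraries after doxycycline were thus above the library at 0 h in this line. The log2 change at 12 h was 1.45 for CBFA2T3 and 1.47 for GLIS2, with 0.1 FPKM added to each value here and throughout, and 1.03 and 1.85 after the change in the empty vector line was subtracted. Reads from the construct and from the cell's own genes cannot be told apart in gene totals. In the AML1-ETO line, the same 2 genes were lower at 12 h, with log2 changes of -1.17 and -0.91.

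Part of what moved in this line over 12 h moved in the empty vector line too. In the ETO2-GLIS2 line, 314 genes were at least 2-fold higher at 12 h (2.78% of the 11311) and 159 were at least 2-fold lower (1.41%). Of these, 125 and 65 passed 2-fold in the same direction in the empty vector line. Over the same 11311 genes, the empty vector line itself had more, with 494 at least 2-fold higher and 164 at least 2-fold lower. A gene was called raised or lowered where both its own change and its change after subtraction passed 2-fold. The raised genes numbered 121 (1.07%) and the lowered genes 78 (0.69%). With values rescaled without the mitochondrial genes, they numbered 123 and 82. Since no test stands behind these calls, many of the named changes are given with a 95% interval from their reads, which covers counting error only.

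**Figure D1:**
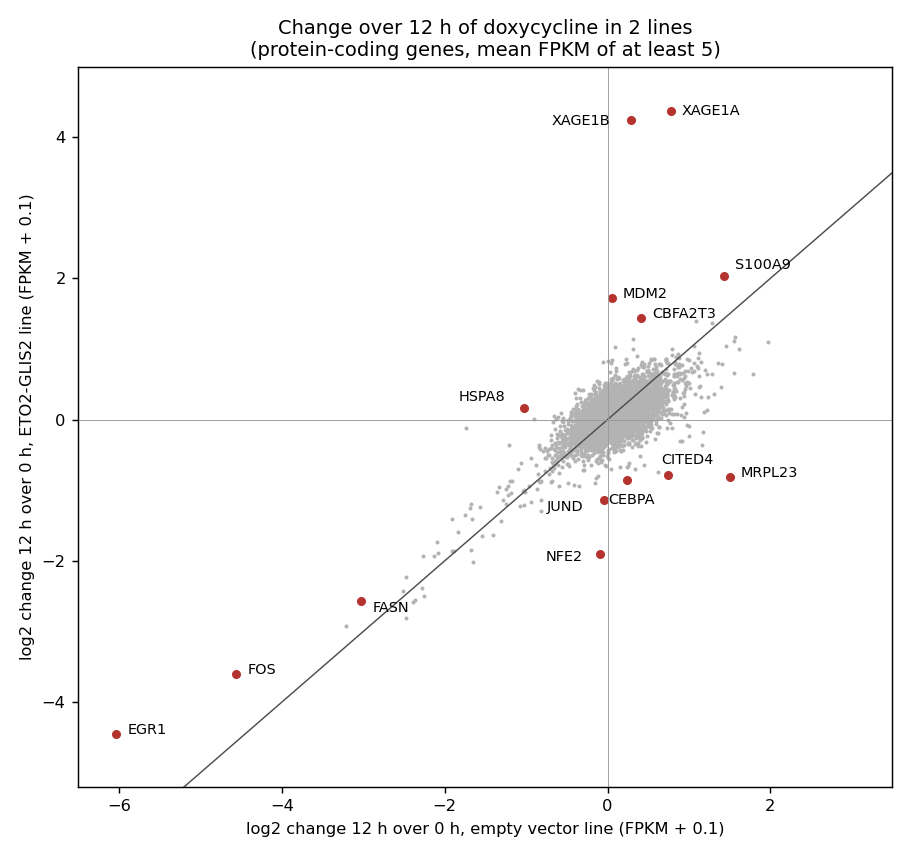
Log2 change from 0 h to 12 h in the empty vector line (x axis) against the ETO2-GLIS2 line (y axis), 1 point for each of the 6599 protein-coding genes with a mean of at least 5 FPKM. The diagonal marks equal change. EGR1, FOS and FASN lie low in both lines, whereas XAGE1A, XAGE1B and MDM2 lie above and NFE2 and JUND below the diagonal. The change in the empty vector line was small for MDM2 (0.05), NFE2 (-0.10) and JUND (-0.04), and was 0.28 for XAGE1B and 0.78 for XAGE1A.

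Few of the called genes coded for proteins. Of 9542 protein-coding genes, 14 were raised (0.147%) and 2 were lowered (0.021%). Among the 6599 protein-coding genes with a mean of at least 5 FPKM, the change after subtraction had a median of 0.00 and an SD of 0.25 on the log2 scale, and its 1st and 99th percentiles were -0.66 and 0.53. At this level, a call at 1.5-fold, chosen after the values were seen, gave 15 raised (0.227%) and 19 lowered genes (0.288%). The largest group of raised genes was small structured RNA, with 44 of 183 such genes raised and 25 lowered. The noncoding calls rested on few reads. The median raised gene had 19 reads over both libraries and the median lowered gene 8, against 1309 over all genes tested. The interval of the line's own change lay clear of 0 for 73 raised and 32 lowered genes, and for 36 and 19 the interval of the subtracted change did so too.

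**Figure D2:**
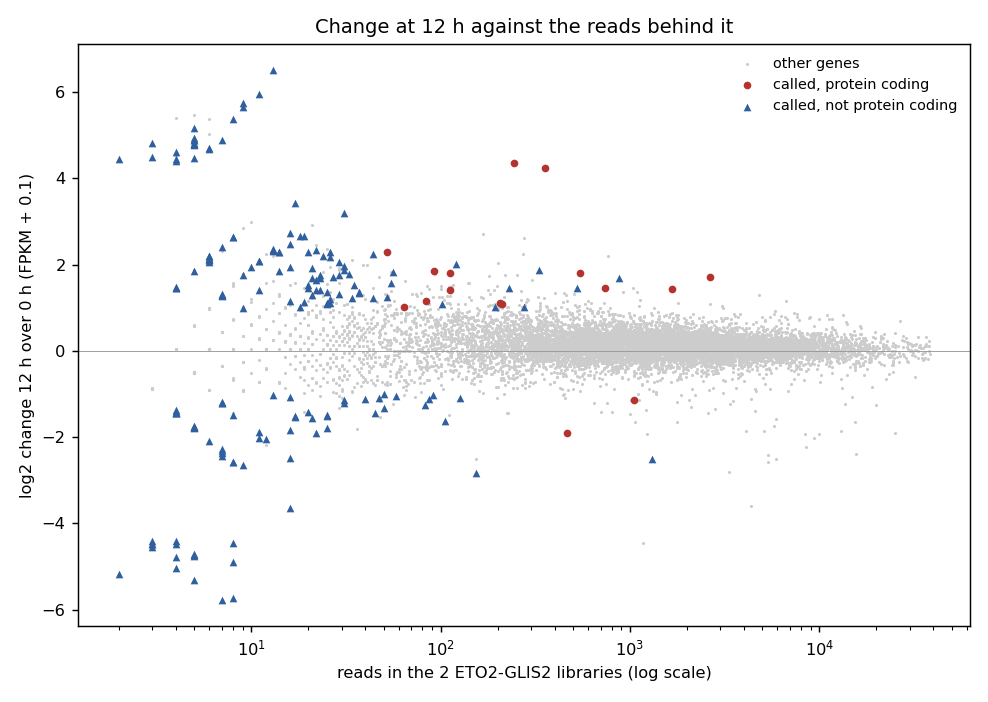
Log2 change from 0 h to 12 h in the ETO2-GLIS2 line (y axis) against the reads that the gene had in both libraries together (x axis, log scale). Triangles are called genes that do not code for proteins, circles are called protein-coding genes, and grey points are the other genes. The triangles lie mostly at few reads, around the medians of 19 and 8, and 4 lowered genes whose reads could not be recovered are not drawn.

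MDM2, the ubiquitin ligase that marks p53 for degradation, was the raised protein-coding gene with the most reads behind it. Its level was 2.48 FPKM at 0 h, 8.43 at 12 h and 11.20 at 48 h. In the empty vector line it was 2.82, 2.93 and 2.64 FPKM, and in the AML1-ETO line 2.78, 2.90 and 2.13 FPKM. The 2 libraries of the ETO2-GLIS2 line after doxycycline thus stood above all 7 others. The log2 change at 12 h was 1.73 (interval 1.63 to 1.90, from 615 and 2028 reads), and 1.67 after subtraction (1.47 to 1.88). The gene lies on chromosome 12 at 68808172 to 68850686 (hg38). CDKN1A, the cell cycle inhibitor that p53 induces, was at 15.3 FPKM at 0 h and 11.4 at 12 h. Its log2 change was -0.43 (-0.58 to -0.28), and the empty vector line had 12.6 and 14.3 FPKM. At 48 h it was at 24.1 FPKM, beside 25.2 in the empty vector line. CDKN2D, an inhibitor of CDK4 and CDK6, was at 7.03 and 4.16 FPKM, and CCNE2, which drives entry into S phase, at 2.90 and 6.33 FPKM, with 3.96 and 6.27 FPKM in the empty vector line.

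XAGE1A and XAGE1B, near-identical cancer-testis antigen genes on the X chromosome, had the largest increase of the raised protein-coding genes. XAGE1B was at 0.61 FPKM at 0 h, 13.5 at 12 h and 0.86 at 48 h, and XAGE1A at 0.58, 13.9 and 0.78 FPKM. In the empty vector line XAGE1B was at 0.83, 1.03 and 1.79 FPKM. The 12 h library therefore stood alone in this line. Its log2 change was 4.25 for XAGE1B (3.74 to 5.28, from 16 and 341 reads) and 4.37 for XAGE1A (3.68 to 5.67, from 10 and 233 reads). How reads fell between the copies is uncertain, but their sum went from 1.19 to 27.4 FPKM, with a log2 change of 3.92 after subtraction. XAGE1B was also expressed in the AML1-ETO line, at 8.62 FPKM before doxycycline and 2.29 at 12 h, so a line without ETO2-GLIS2 also expressed it. XAGE1A at 12 h was 6.61 times the highest of the other 8 libraries.

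S100A8 and S100A9, which form the calcium-binding alarmin calprotectin of neutrophils and monocytes, had the same course, with S100A8 at lower levels. S100A8 was at 0.49 FPKM at 0 h, 2.76 at 12 h and 0.69 at 48 h, from 8, 44 and 10 reads, and its log2 change was 2.29 (1.40 to 3.80). The empty vector line had 1 read at each of 0 and 12 h, so the interval of the subtracted change was -1.90 to 6.39. The 12 h value was 4.02 times the highest of the other 8 libraries. S100A9 was at 3.78, 15.8 and 4.37 FPKM, a log2 change of 2.03 (1.56 to 2.60), while the empty vector line had 0.97 and 2.77 FPKM, which left 0.61 after subtraction (-0.61 to 1.82). For both genes the 12 h library was the highest of the line. Of the 17 measured S100 and annexin genes, S100A8 was the 1 raised and none was lowered.

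The other raised protein-coding genes were under 5 FPKM on average. TNFSF4, the OX40 ligand that costimulates T cells, was at 0.90, 2.05 and 2.64 FPKM at 0, 12 and 48 h, a log2 change of 1.10 (0.75 to 1.62), and at 0.95 and 0.98 FPKM in the empty vector line. ADAMDEC1, a metalloprotease of macrophages and dendritic cells, was at 1.45, 3.26 and 4.06 FPKM, a log2 change of 1.12 (0.74 to 1.62), and the interval after subtraction was -0.08 to 2.34. Both genes kept a higher level at 48 h than at 0 h. CPXM1, FAM90A1, TEX30 and PHGR1 were called from between 18 and 83 reads per library, and only CPXM1 was still more than 2-fold above its 0 h level at 48 h. RPS10 was called from 23 and 89 reads, and 31.5% of its exon bases overlap another gene on the same strand, so that its count is uncertain.

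CBS, cystathionine beta-synthase of the transsulfuration pathway, was raised from 0.94 to 3.53 FPKM, but its near-identical copy CBSL moved the opposite way. CBSL was lowered from 1.91 to 0.18 FPKM. The sum of both was 2.85 FPKM at 0 h and 3.71 at 12 h, and its log2 change after subtraction was -0.31. The split of reads between the copies therefore decided both calls. U2AF1L5, a copy of the splicing factor gene U2AF1, was lowered from 5.55 to 0.89 FPKM. The sum of the U2AF1 copies also went down, from 6.33 to 2.33 FPKM. The annotation used does not type CBSL and U2AF1L5 as protein coding. These pairs were looked at after their values were seen.

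At 1.5-fold, S100A9 and 10 further genes joined the raised set, among them HLA-DRB1, CD180, CD300C and CASP1. HLA-DRB1, a class II antigen-presenting chain, was at 3.35 FPKM at 0 h, 6.92 at 12 h and 7.21 at 48 h, with a log2 change of 1.02 (0.64 to 1.46). The empty vector line had 0.65 and 0.70 FPKM, so few reads that the subtracted change of 0.93 had an interval of -0.25 to 2.11. CD180, a Toll-like receptor homolog, was at 6.28, 11.2 and 4.47 FPKM, a log2 change of 0.82 (0.69 to 0.97). CD300C, a receptor of monocytes, was at 5.02, 11.2 and 8.74 FPKM, with 4.52 and 5.64 FPKM in the empty vector line. CASP1, the protease that matures interleukin-1 beta, was at 4.44 and 7.18 FPKM, a log2 change of 0.68 (0.48 to 0.91). TWNK, the mitochondrial DNA helicase, had a log2 change of 0.85 (0.72 to 0.98), TIMM10, an import chaperone, of 0.81 (0.52 to 1.11) and RRP9, a small nucleolar RNA binding protein, of 0.73 (0.58 to 0.89). AOC1, CHMP6 and ASNSD1 completed the set with MDM2, CBFA2T3, S100A9 and both XAGE1 copies.

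NFE2, the transcription factor of late megakaryocytes and red cell precursors, was the most strongly lowered gene that the annotation types as protein coding. It was at 8.51 FPKM at 0 h, 2.20 at 12 h and 0.80 at 48 h, from 371, 93 and 31 reads. In the empty vector line it was at 6.37, 5.96 and 3.85 FPKM, so that the 12 h and 48 h libraries of the ETO2-GLIS2 line lay below all 3 empty vector libraries. The log2 change was -1.90 (-2.30 to -1.62) and -1.81 after subtraction (-2.23 to -1.39). In the AML1-ETO line NFE2 was at 9.57, 2.14 and 0.06 FPKM, with a log2 change at 12 h of -2.11. The gene lies on chromosome 12 at 54292111 to 54301015 (hg38).

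JUND, a subunit of the AP-1 transcription factor, was the other lowered gene so typed. It was at 20.5 FPKM at 0 h, 9.30 at 12 h and 12.3 at 48 h, against 24.4, 23.8 and 21.99 FPKM in the empty vector line. Its log2 change was -1.13 (-1.34 to -0.95), and -1.10 after subtraction (-1.34 to -0.86). The library at 0 h was already below every empty vector library, and both later ones were lower still. In the AML1-ETO line the log2 change was -1.12, but the level there was 34.7 FPKM at 0 h and 33.1 again at 48 h.

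CEBPA, the factor that commits progenitors to the granulocyte and monocyte lineage, was short of 2-fold in its own change but lay just outside the threshold. It was at 49.2 FPKM at 0 h, 27.0 at 12 h and 24.5 at 48 h, and at 61.0, 71.7 and 82.9 FPKM in the empty vector line. Its log2 change was -0.86 (-0.96 to -0.76, from 2360 and 1258 reads), and -1.09 after subtraction (-1.22 to -0.97). The lines thus went apart, and the AML1-ETO line had a log2 change of -1.39. Of the exon bases of CEBPA, 43.9% overlap a gene on the other strand, whose reads the library kit does not set apart. Other members just outside the threshold were GRIK3 and ORAI3 on the lowered side and TCN2, IL4I1 and HLA-DRB1 on the raised side. Just inside it were PHGR1, CBFA2T3 and TNFSF4.

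The other genes lowered at 1.5-fold included LYL1, SELPLG and P2RX1. LYL1, a basic helix-loop-helix partner of ETO2 in blood progenitors, was at 34.6 FPKM at 0 h, 21.3 at 12 h and 19.5 at 48 h, and at 46.6, 47.8 and 54.7 FPKM in the empty vector line. Its log2 change was -0.70 (-0.81 to -0.60). SELPLG, the P-selectin ligand that lets leukocytes roll on endothelium, was at 24.1, 15.1 and 8.14 FPKM, and at 29.8, 33.0 and 31.8 FPKM in the empty vector line, with a log2 change of -0.67 (-0.82 to -0.54). P2RX1, an ATP-gated ion channel of platelets and leukocytes, was at 23.7, 12.7 and 14.6 FPKM, a log2 change of -0.90 (-1.02 to -0.78). For these 3 genes both later libraries were below the library at 0 h. TSC22D3, a glucocorticoid-induced leucine zipper protein, was at 10.0 FPKM at 0 h and 5.19 at 12 h but at 11.1 at 48 h. CCNG2, a cyclin of resting cells, was at 8.47, 5.32 and 7.91 FPKM. MACROD1, CDC42EP4, FBXO43, HOMER3, IL23A, METTL7A, PIGBOS1 and the mitochondrial gene MT-ND6 were also in this set, with log2 changes of the line between -0.61 and -0.83.

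**Figure D3:**
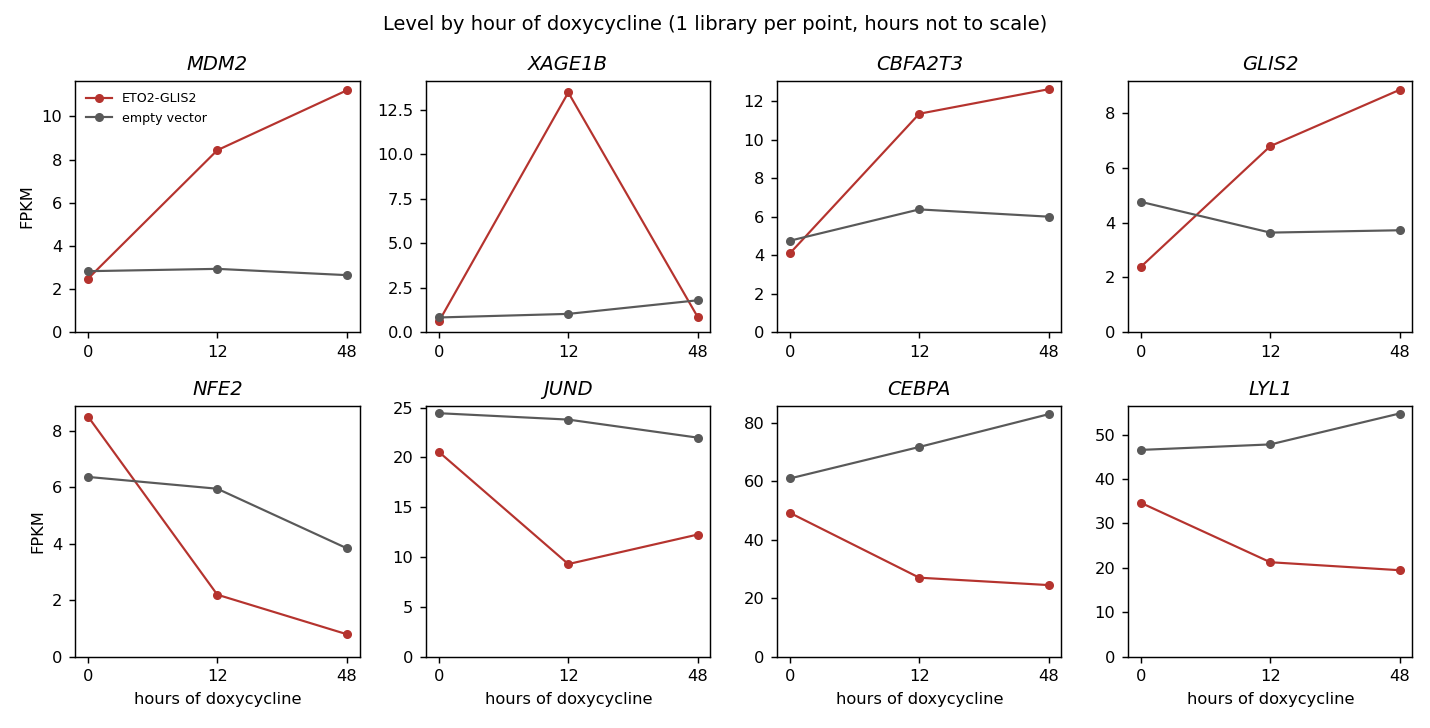
FPKM (y axis, from 0) at 0, 12 and 48 h of doxycycline (x axis) for 8 genes in the ETO2-GLIS2 line and the empty vector line, 1 library per point. NFE2, CEBPA and LYL1 were low at 12 h and lower still at 48 h, MDM2 was higher at 48 h than at 12 h, and XAGE1B was high at 12 h alone.

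A further 3 protein-coding genes in the lowered set were past 1.5-fold the opposite way in the empty vector line. MRPL23, a protein of the mitochondrial ribosome, was at 8.22 FPKM at 0 h and 4.64 at 12 h, and at 2.29 and 6.68 FPKM in the empty vector line. CITED4, a coactivator that binds CBP and p300, was at 19.8 and 11.5 FPKM, and at 28.5 and 48.0 FPKM in the empty vector line. CDKN2D was at 4.29 and 6.63 FPKM in the empty vector line. The difference between the lines for MRPL23 thus rested in part on levels that differed before doxycycline.

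The promoters at the annotated starts of MDM2, CEBPA and JUND are shown. Gene totals do not tell from which start of a gene its RNA came. Each is the 250 bases before the gene's start, from RefSeq on GRCh38.p14, read 5′ to 3′ on the gene's strand, with runs of 5 or more C or G in capitals, since the zinc fingers of GLIS2 bind G-rich sites.
MDM2 (chr12:68807922-68808171, plus strand): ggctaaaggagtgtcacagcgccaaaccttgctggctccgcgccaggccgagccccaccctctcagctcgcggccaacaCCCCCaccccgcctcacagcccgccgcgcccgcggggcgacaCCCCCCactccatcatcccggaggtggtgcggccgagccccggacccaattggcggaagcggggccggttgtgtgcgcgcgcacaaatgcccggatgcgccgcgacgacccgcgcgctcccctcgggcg
CEBPA (chr19:33302535-33302784, minus strand): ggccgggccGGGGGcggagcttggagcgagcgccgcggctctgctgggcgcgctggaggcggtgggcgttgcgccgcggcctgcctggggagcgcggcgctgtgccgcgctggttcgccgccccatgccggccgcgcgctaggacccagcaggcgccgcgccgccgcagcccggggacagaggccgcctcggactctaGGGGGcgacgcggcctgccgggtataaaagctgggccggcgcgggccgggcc
JUND (chr19:18281623-18281872, minus strand): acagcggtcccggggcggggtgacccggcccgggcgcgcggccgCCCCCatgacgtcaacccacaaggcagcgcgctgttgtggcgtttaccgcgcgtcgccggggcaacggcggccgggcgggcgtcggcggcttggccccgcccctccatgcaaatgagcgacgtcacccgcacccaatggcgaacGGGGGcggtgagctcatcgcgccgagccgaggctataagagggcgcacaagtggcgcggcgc
Such a run (CCCCC on either strand) was in each of the 3, and in 70.6% of the 7958 promoters that RefSeq gave for the genes tested. For the shares over genes, here and below, a promoter ran from 250 bases before to 50 bases after the start, longer than the stretches shown. The letters GACCCCCC, a GLIS-type site, were in none of the 3 and in 1.02% of all. They were also in none of the 11 promoters of genes raised and 12 of genes lowered at 1.5-fold. The other motifs, sought on both strands, were in none of the 3 either. The C/EBP motif TTGCNNAA was in 6.81% of all, the AP-1 motif TGANTCA in 4.03%, the ETS motif CCGGAAG in 21.4% and the E-box CAGCTG in 16.3%.

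Few members of the megakaryocyte and Hedgehog gene lists were expressed. In the lists linked to the fusion, the counts called are too small to set apart from the 1.07% raised and 0.69% lowered over all genes. Of 30 megakaryocyte and CBFA2T3-GLIS2 leukemia markers, 5 were measured at 1 FPKM or more, and NFE2 was the 1 called. FLI1, an ETS factor of megakaryocytes, was at 15.7 and 14.8 FPKM, and ERG at 1.05 and 1.19 FPKM. Of 18 Hedgehog and GLI genes, a list without the construct's GLIS2, 4 were measured and none was called, with PTCH1, the Hedgehog receptor and target, at 1.53 and 1.71 FPKM. Of 26 BMP, SMAD and ID genes, 14 were measured and none was called, and the inhibitor of differentiation ID1 was at 4.88 and 5.21 FPKM. Of the 18 genes of the ETO family and corepressor list, which leaves out the construct's CBFA2T3, 14 were measured and none was called. Their median change after subtraction was -0.20, beside -0.02 over all genes.

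Of the 30 measured myeloid transcription factors, none was called, and 12 were above the empty vector line in their change (40%, against 46.7% of all genes). CEBPB, a driver of macrophage differentiation, was at 20.6 and 19.3 FPKM, beside 21.03 and 42.1 FPKM in the empty vector line. IRF8, a monocyte lineage factor, was at 71.7 FPKM at 0 h, 43.6 at 12 h and 18.9 at 48 h, a log2 change of -0.72, with -0.31 in the empty vector line. Monocyte and macrophage genes had a positive median change at 12 h in both lines. In the ETO2-GLIS2 line, all 27 measured genes had a positive change. The median was 0.52 in the ETO2-GLIS2 line and 0.58 in the empty vector line, and none was called. NCF1 and CYBB, subunits of the NADPH oxidase, had log2 changes of 2.24 and 1.05, with 1.80 and 0.22 in the empty vector line. ITGAM, which encodes CD11b, was at 2.23 and 4.56 FPKM, with 1.17 and 1.963 FPKM in the empty vector line.

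Among 25 measured interferon-stimulated genes none was called, and the median change was 0.19 in the ETO2-GLIS2 line and 0.21 in the empty vector line. OAS3, a sensor of double-stranded RNA, was at 5.14, 8.91 and 14.4 FPKM at 0, 12 and 48 h, a log2 change of 0.78 with 0.21 in the empty vector line. IFI35 was at 2.75, 4.73 and 6.72 FPKM, with log2 changes of 0.76 and 0.20. SAMD9L lay on the other side, with log2 changes of 0.74 in the ETO2-GLIS2 line and 1.28 in the empty vector line. Of the 25 genes, 10 were above the empty vector line in their change and 15 were below it.

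The largest median change of the 31 gene lists was common to both lines. Of the 30 measured genes of cholesterol and fatty acid synthesis, 23 fell past 2-fold in the ETO2-GLIS2 line and 24 did so in the empty vector line. The median log2 change was -1.75 and -1.69. FASN, the fatty acid synthase, went from 254 to 42.7 FPKM, HMGCS1, an early enzyme of the mevalonate pathway, from 24.1 to 3.36, and INSIG1, a sterol sensor, from 427 to 56.3 FPKM. None was called after subtraction, where the median was 0.03. The immediate early genes FOS and EGR1 also fell in both lines, but the median change of their list was -0.02 and -0.11. FOS went from 69.0 to 5.598 FPKM and EGR1 from 19.6 to 0.80 FPKM, and in the empty vector line from 73.1 to 3.01 and from 40.9 to 0.53 FPKM. Of 29 measured immediate early genes, JUND was the 1 called. In the line's own change, 12 were above 0 and 7 were past 2-fold lower. In the empty vector line, 5 were past 2-fold lower.

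The response to amino acid and endoplasmic reticulum stress that ATF4 drives was smaller at 12 h in the ETO2-GLIS2 line. Of 34 measured genes, 8 were above the empty vector line in their change (23.5%, against 46.7% of all genes), with medians of 0.49 and 0.73, and after subtraction -0.24. The AML1-ETO line, with a median of 0.55 at 12 h, was also below the empty vector line. At 48 h the medians were 1.205 in the ETO2-GLIS2 line and 0.92 in the empty vector line. DDIT4, an inhibitor of mTORC1, was at 3.14 and 2.75 FPKM, beside 1.77 and 8.85 in the empty vector line. ATF5 was at 3.97 and 5.43 FPKM, beside 3.21 and 13.3, and TRIB3, a pseudokinase that restrains ATF4, at 14.8 and 12.6 FPKM, beside 17.2 and 34.5. These genes were higher at 48 h in the ETO2-GLIS2 line, where DDIT4 was at 19.97, ATF5 at 20.4 and TRIB3 at 39.4 FPKM. The serine synthesis enzyme PHGDH had log2 changes of 0.82 and 0.72 in the 2 lines, and the amino acid transporter SLC7A5 had 0.85 and 0.72. CBS, the 1 list member called, was called on the read split given above.

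Genes that build ribosomes and genes of the ribosome itself lay on opposite sides of the empty vector line. Of 37 measured ribosome biogenesis factors, 34 were above the empty vector line in their change (91.9%, against 46.7% of all genes). Their median was 0.33 in the ETO2-GLIS2 line and 0.01 in the empty vector line, where the medians of all genes were 0.11 and 0.13. The AML1-ETO line also had a higher median for these factors at 12 h, 0.44 beside 0.16 over all genes. POLR1B, a subunit of RNA polymerase I, was at 8.31 and 11.9 FPKM, beside 10.0 and 9.99, and GAR1, a pseudouridylation factor, at 12.7 and 16.4 FPKM, beside 21.8 and 18.8. Of 74 measured cytosolic ribosomal proteins, 68 were below the empty vector line in their change, with medians of -0.17 and 0.07. Their median in the AML1-ETO line was 0.39. RPLP1 was at 380 and 303 FPKM, beside 149 and 193, and RPS12 at 786 and 617 FPKM, beside 399 and 474. The levels of these 2 genes were already higher in the ETO2-GLIS2 line at 0 h. No biogenesis factor was called, and RPS10 was the 1 ribosomal protein gene called. Ribosomal protein genes have many pseudogene copies in the genome, so how their reads were divided is uncertain.

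Of 37 measured DNA replication genes none was called, and 31 were above the empty vector line in their change (83.8%, against 46.7% of all genes), with medians of 0.28 and 0.05. Their median in the AML1-ETO line was -0.12. The helicase subunits MCM2, MCM5 and MCM6 went from 34.8 to 49.0, from 22.4 to 36.7 and from 65.4 to 88.7 FPKM, and at 48 h were at 18.4, 10.7 and 42.0 FPKM. In the empty vector line MCM2 was at 77.5 and 80.2 FPKM, above all 3 libraries of the ETO2-GLIS2 line. Mitosis genes had a median change of -0.05, beside -0.03 in the empty vector line.

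Of the 32 chaperone genes none was called, and 19 were above the empty vector line in their change. Their medians were -0.16 and -0.43, and 0.17 after subtraction. HSPA8, the constitutive HSP70 of the cytosol, was at 163 and 183 FPKM, beside 158 and 77.3 in the empty vector line. DNAJA1, its cochaperone, was at 55.1 and 57.4 FPKM, beside 61.3 and 38.7. BAG3, another cochaperone, was at 1.22 and 1.91 FPKM, beside 1.25 and 1.203. Genes of the mitochondrial genome had medians of -0.45 and -0.32, and 10 of the 15 were above the empty vector line in their change. Farthest below it were the ribosomal RNA genes MT-RNR1 and MT-RNR2 and the light-strand gene MT-ND6, which was at 1265 FPKM at 0 h and 713 at 12 h, beside 818 and 740 FPKM.

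**Figure D4:**
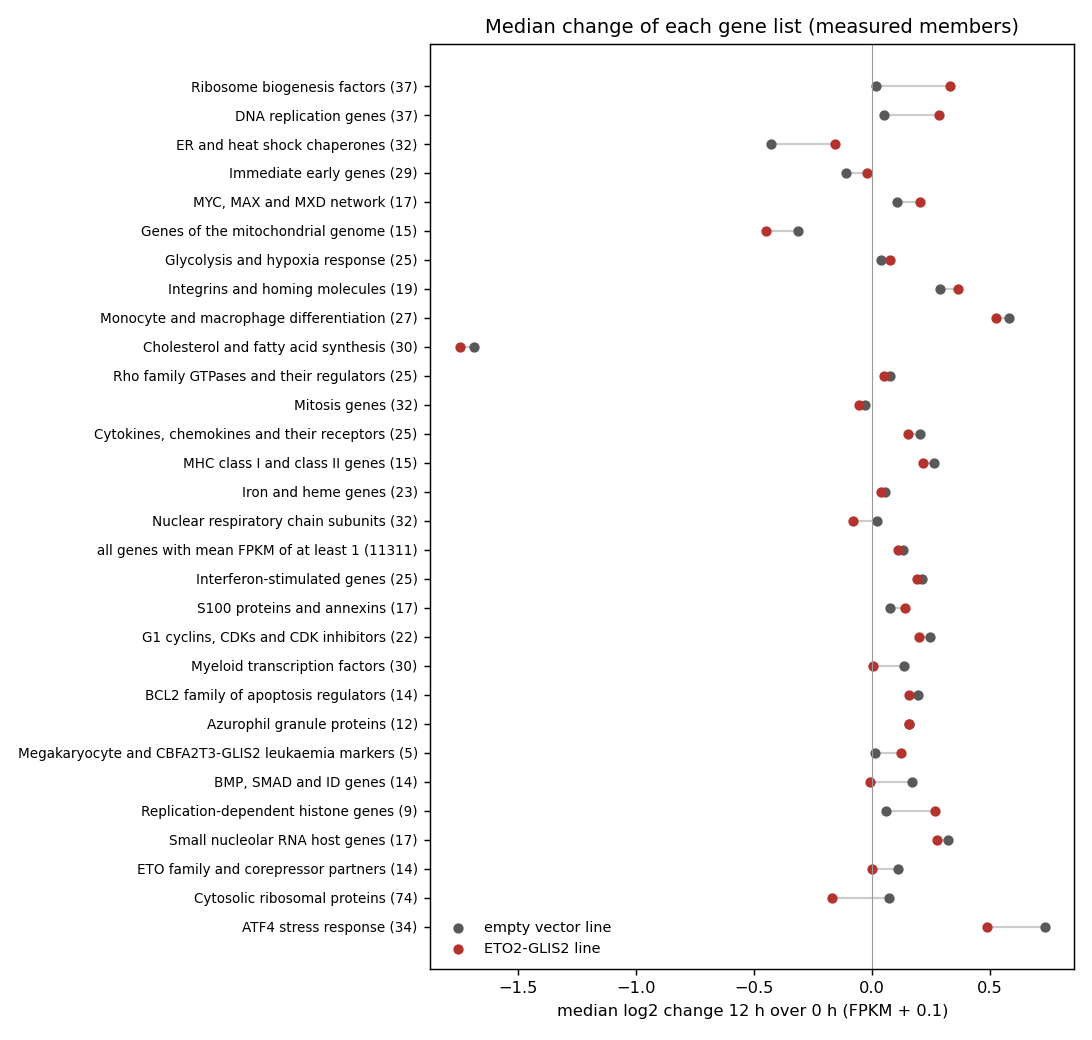
Median log2 change from 0 h to 12 h (x axis) of the gene lists with at least 5 measured members, in the ETO2-GLIS2 line and the empty vector line, ordered by the median after subtraction, with the number of members in brackets. Ribosome biogenesis factors (0.33 against 0.01) and the ATF4 response (0.49 against 0.73) lie at the ends, and lipid synthesis is far below 0 in both lines.

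Among RNA that does not code for protein, the deepest raised genes were processed pseudogenes. DHFRP1 was at 20.6 and 66.4 FPKM, from 876 reads in both libraries together, with 58.0 and 78.2 FPKM in the empty vector line. SPCS2P4 was at 5.73, 21.3 and 3.14 FPKM at 0, 12 and 48 h, and at 13.2 and 6.89 FPKM in the empty vector line, a log2 change of 1.87 (1.51 to 2.29). Reads of such copies cannot be kept apart with certainty from those of their parent genes. The precursor of miR-25 was at 1.94 and 18.6 FPKM from 3 and 28 reads, and the small nucleolar RNA genes SNORD6 and SNORD83A from 6 and 12 and from 8 and 18 reads. At this depth, the counting intervals of these 2 small nucleolar RNAs included no change, reaching down to -0.48 and -0.06, though both were called raised.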

How the data were processed

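RNA-seq libraries of U937 lines (9, with 1 per condition) were made with a kit that does not mark strand. The authors aligned reads to hg38 with HISAT2 (2.0.5), handled alignments with SAMtools (1.7), counted reads per gene with HTSeq (0.9.1) and deposited FPKM values, which were the only unit used here. Log2 changes were computed as log2(FPKM + 0.1), 12 h over 0 h, for genes with a mean of at least 1 FPKM, and the same change in the empty vector line was subtracted. Genes past 2-fold before and after subtraction were called. With 1 library a side, there was no test and no p-value.

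Whole reads were recovered from the FPKM steps for 23804 of 23889 genes above 0 in at least 3 libraries (99.6%), and total 15136395 to 18443636 per library. They gave exact binomial 95% intervals for the line's change and normal-approximation intervals for the subtracted change, both of counting error only, on read ratios without the added 0.1. Reads are not independent molecules. A count of 0 allows 3 reads. The recovery was tested on simulated data.

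Gene types and exon overlaps were matched by identifier to GENCODE v44lift37 (96.6% of identifiers). Coordinates and promoters came from RefSeq on GRCh38.p14. Promoters were found for 7958 of 11271 genes. The rule for named genes took the construct's genes, the called protein-coding genes with a mean of at least 5 FPKM (12 each way at most), the 4 other gene types each way with the largest change, genes with a mean of at least 50 FPKM (none was called), called members of 31 gene lists with up to 4 others of each, and genes opposite in the empty vector line. Genes named at 1.5-fold, below 5 FPKM or as copies, and some list members, were added after their values were seen. The members and lists were chosen with earlier results of these data known. Alternatives covered the pseudocount, filter, fold, scaling, background and counting error. Python 3.11.15, numpy 2.4.6, pandas 2.3.3, scipy 1.17.1 and numba 0.67.0 were used.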

Additional observations from a re-analysis of the deposited data

Results flagged for a closer look

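Among the raised protein-coding genes, 4 were past 1.5-fold lower at 12 h in the AML1-ETO line. The difference in log2 change, ETO2-GLIS2 minus AML1-ETO, was 6.12 for XAGE1B, 2.62 for CBFA2T3, 2.38 for GLIS2 and 2.37 for TNFSF4. The near-identical copy XAGE1A went the other way with AML1-ETO, with log2 changes of 1.35 for XAGE1A and -1.87 for XAGE1B. How reads fell between the copies is uncertain. Summed over both copies, the level with AML1-ETO was 9.26 FPKM at 0 h and 4.09 at 12 h, so the sum was lower at 12 h. CBFA2T3 and GLIS2 are carried by the construct. TNFSF4 had a log2 change of 1.10 in the ETO2-GLIS2 line and -1.28 in the AML1-ETO line.

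Among the protein-coding genes lowered at 1.5-fold, 3 were past 1.5-fold higher at 12 h in the empty vector line. The log2 change after subtraction was -2.31 for MRPL23 (-0.81 in the ETO2-GLIS2 line and 1.503 in the empty vector line), -1.53 for CITED4 (-0.78 and 0.75) and -1.36 for CDKN2D (-0.74 and 0.62). None of these differences between lines was tested, since each condition had 1 library.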

How the results depend on the processing

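The 121 raised and 78 lowered genes became 131 and 83 with a pseudocount of 0.01 FPKM, 114 and 88 with median-ratio scaling, and 123 and 82 without the mitochondrial genome. Other settings moved the counts by over 1.5 times. They were 69 and 40 with a pseudocount of 1 FPKM, 1294 and 1129 with no filter on low values, and 17 and 2 with a mean of at least 5 FPKM. They were 270 and 184 at 1.5-fold and 59 and 45 at 3-fold. They were 314 and 159 without the empty vector line, 218 and 333 by the subtracted change alone, and 189 raised with no subtraction but without the genes that passed 2-fold there (94 lowered, within 1.5 times). With a counting interval of the line's change clear of 0 they were 73 and 32, and for protein-coding genes 14 and 2. For 2 settings chosen after seeing the data, they were 36 and 19 with both intervals clear of 0, and 15 and 19 for protein-coding genes with a mean of at least 5 FPKM at 1.5-fold. The raised share of calls thus turned to a minority with the subtracted change alone, and for the protein-coding genes at 1.5-fold. Values of single genes were recomputed with the 2 other pseudocounts and the 2 other scalings only. Of 1304 such values, 1243 stayed within the counting interval of the reported value (0.1 where reads could not be recovered) and 61 left it. The sign changed for 0 values of called genes and for 26 of genes not called. Median-ratio scaling shifted the median of all genes from 0.11 to 0.01 in the ETO2-GLIS2 line and from 0.13 to 0.00 in the empty vector line. No paired analysis was possible because each condition had 1 library and the labels carry no replicate numbers. The median called gene had 19 reads if raised and 8 if lowered, and the causes of the shifts were not tested.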
